A study of Prunus persica with 84 samples.

Results

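Among the genes of peach floral buds, 250 had a peak at 200 h of cold in the genotype John Boy, and 96 of these were also higher in the chilled buds of a second genotype, KV021779. These 96 of the 26879 genes in the count table are described here. The choice used group means in CPM (the count divided by the library's total count, times 1000000), with 0.5 added before a ratio was taken. A member had its John Boy maximum at 200 h among 7 chilling times, at least 5 CPM there, at least 4 times the level at 0 h, and in KV021779 at least 2 times the 0 h level at some time from 100 to 1000 h. Because chilling values chose the members, the values at 4 °C are given as a description with no test. All tests were made on the libraries at 22 °C, which the choice did not use.

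Floral buds came from cut shoots of John Boy, abbreviated JB, and of KV021779, abbreviated LP after the titles of its samples. Shoots standing in water were chilled at 4 °C, with samples after 0, 100, 200, 400, 600, 800 and 1000 h, and were then warmed to 22 °C, with samples after 1, 4, 8, 12, 16 and 20 d and, for LP alone, 24 and 28 d. Bloom started on day 20 in JB and on day 28 in LP. Each of the 28 groups had 3 libraries of messenger RNA, with 8021919 to 26346177 counts each. The labels do not tie the replicates to trees, so p-values rest on how far these libraries spread, and that spread may be technical. No replicate pair agreed within sampling noise, with a chi-square per degree of freedom from 1.39 to 23.3. Shoots kept for the same hours without cold are not analysed here, so cold and time on the cut shoot cannot be told apart. In whole buds, fewer cells of a type and less RNA per cell cannot be told apart either.

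Peach flower buds form in summer and become dormant before winter. They need a long spell of cool temperature before warmth can bring them to bloom, and trees differ in how much cool and how much warmth they need. Dormancy-associated MADS-box (DAM) genes mark this state, and cold also turns on protective and regulatory genes, some of them for a short time only. The table names only the 6 DAM genes, and 0 of them are members. PRUPE_DAM4 had reads in all 84 libraries. The other DAM genes are not reported here, and outside the DAM genes no marker of the tissue could be checked. The files do not pair the identifiers of the 96 members with gene names, and 0 identifiers of the table were found in the RefSeq gene table used here, so no function is given to a member.

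In JB the members stood together at 200 h and lower at every other chilling time. Each member's level was taken as a percentage of its own JB 200 h mean. The median over the 96 members was 11.4% before chilling and 40.3% after 100 h, and then 23.6%, 20.8%, 31.9% and 19.8% after 400, 600, 800 and 1000 h. The 3 libraries at 200 h had member medians of 101%, 101% and 96.4%, near 100% by construction, since their mean is the reference. The SD of a member over these 3 libraries, as a percentage of its mean, had a median of 7.68% and ran up to 31.6%. The members ranged from 5.10 to 1627 CPM at JB 200 h, with a median of 30.7 CPM, and 20 reached 100 CPM. The ratio of 200 h to 0 h ran from 4.08 to 92.9 with a median of 7.34. In 83 of the 96 members the lowest 200 h library lay above all 18 other JB chilling libraries, against 4.77% of the genes with a read, a count that follows from the choice.

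**Figure D1:**
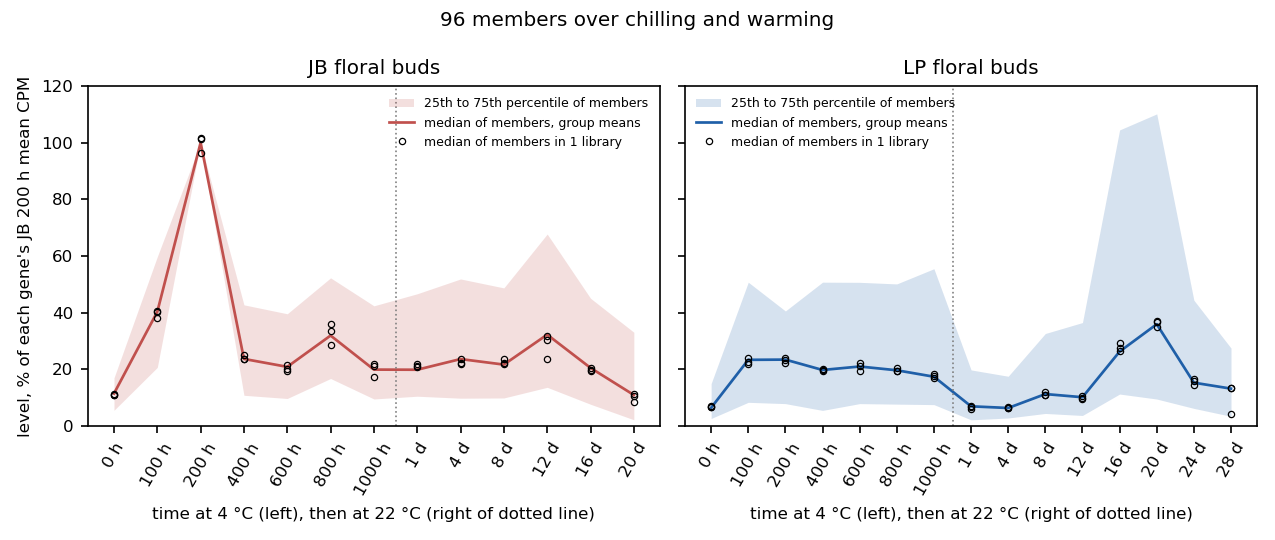
Level of the 96 members as a percentage of each gene's JB 200 h mean CPM (y axis) against time at 4 °C and then at 22 °C (x axis), for JB (left) and LP (right). Lines are medians over members of the group means, shading runs from the 25th to the 75th percentile of members, and circles are the member medians of single libraries. The JB median stands at 100% at 200 h by construction and at 32.2% at 12 d, and the LP median is highest at 20 d, at 35.9%.

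PRUPE_7G178500 and PRUPE_7G051200 were the most abundant members at JB 200 h. PRUPE_7G178500 had 1623, 1632 and 1625 CPM in the 3 libraries at 200 h, against 345, 330 and 283 CPM at 0 h and 562, 559 and 604 CPM at 100 h. Its return was gradual, by way of 806 ± 19 CPM after 400 h (SD, n = 3) to 202 ± 22 CPM after 1000 h. PRUPE_7G051200 had 1329, 1352 and 1371 CPM at 200 h, against 57.1, 62.9 and 55.2 CPM at 100 h. By 400 h it was at 304 ± 16 CPM, and by 1000 h at 37.9 ± 1.8 CPM. The largest ratios belonged to PRUPE_1G497700 and PRUPE_8G174900, both nearly silent at 0 h. PRUPE_1G497700 had 0.437, 0.103 and 0.513 CPM at 0 h and 82.5, 79.8 and 73.3 CPM at 200 h. PRUPE_8G174900 had 0.488 ± 0.41 CPM before chilling and 89.2 ± 9.5 CPM after 200 h, with 19.97 ± 1.2 CPM before that peak (100 h) and 2.41 ± 0.11 CPM after it (400 h). The libraries of 0 h and 200 h did not overlap for any of these 4 genes.

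The members differed in the width of the peak. In 61 members the level at 100 h was under 50% of that at 200 h, in 80 members the level at 400 h was, and in 52 both were. The other 44 had a broader course. PRUPE_1G276700 is an example of the broad kind, with a JB level of 1165 ± 66 CPM at 200 h. It had 81.5 ± 2.8 CPM before chilling, was already at 675 ± 52 CPM after 100 h, and kept 434 ± 57 CPM after 1000 h.

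In 22 of the 96 members the JB level was high again at 800 h, at least 1.5 times the level at both 600 h and 1000 h. Of the 17920 genes with some group mean of at least 5 CPM, 540 met the same condition (3.01%), but the members were chosen for a change over these JB libraries, so nothing is read from the difference. PRUPE_3G148300 showed it in full. It had 80.4, 81.3 and 75.5 CPM at 200 h, 4.22, 4.26 and 4.71 CPM at 400 h, and 71.8, 79.8 and 75.5 CPM at 800 h. The libraries of 200 h and 800 h overlapped, and both lay far above those of 400 h. During JB chilling, PRUPE_4G261900 was detected mainly at these 2 times. It had 251, 361 and 374 counts in the JB libraries of 200 h and 163, 89 and 125 counts in those of 800 h. It had no count at 0, 100 and 400 h, 1 count in each library of 600 h, and 5, 7 and 7 counts in those of 1000 h. This division by width and by the level at 800 h was made after the values were seen.

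In LP buds the members had no common peak at 200 h, and the time of maximum differed between members. Their median, as a percentage of the JB 200 h mean, was below that of JB at every chilling time but 600 h, where it was 20.9% against 20.8%. The median level in CPM was higher in LP than in JB at 400 h (5.95 against 5.75 CPM), 600 h (7.56 against 5.44 CPM) and 1000 h (5.81 against 5.26 CPM), and lower at the other times. The LP median was 6.36% before chilling, 23.3% after 100 h and 23.4% after 200 h, and then 19.7%, 20.9%, 19.6% and 17.3% after 400, 600, 800 and 1000 h. From 100 h on, these medians formed a plateau. The LP maximum of a member was a median of 30.5% of its JB 200 h level, with a range from 0.981% to 229%, and 7 members reached or passed it. The choice asked for a high level at JB 200 h and for no level in LP, which favours low LP percentages. The ratio of the LP maximum to LP 0 h ran from 2.02 to 13.9 with a median of 3.40. In 32 members the LP maximum was under 5 CPM. All 3 libraries of the LP maximum lay above the 3 of LP 0 h in 96 of 96 members, against 39.7% of genes with a read, which again follows from the choice.

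The LP maximum came after 100 h in 33 members, after 200 h in 15 and after 1000 h in 23. The remaining maxima were spread over 400 h (7 members), 600 h (12) and 800 h (6). All 15 members with an LP maximum at 200 h were among the 52 with a narrow JB peak, and 0 were among the other 44. Both counts rest on chilling values that the choice used, and no share of all genes is given. Nothing is read from them. In 11 of the 96 members all LP 200 h libraries lay above the 18 other LP chilling libraries, against 1.04% of the genes with a read. The choice asked for an LP chilling maximum above LP 0 h, which favours such genes, so nothing is read from that count. In 34 members all 6 later LP times were at least 2 times LP 0 h, and in 21 members only 1 time was. PRUPE_4G261900 was detected in LP chilling mainly at 200 h and without the second high of JB, with 47, 39 and 64 counts in the LP libraries of 200 h, 3 counts in 1 library of 800 h and none in the other LP chilling libraries. Of the 22 members that were high again at 800 h in JB, 7 met the same condition in LP, and of the other 74 members 0 met it. The condition had no minimum level. The 7 include PRUPE_4G261900, with its 3 counts in 1 library. They also include PRUPE_4G017000, which had 0 CPM at LP 600, 800 and 1000 h and so showed no second high. Among the rest, PRUPE_3G148300 had 20.7 CPM and PRUPE_1G497700 had 4.17 CPM at LP 800 h, and the remaining ones had 1.40 CPM or less. The condition was not counted over all genes in LP, and the choice used LP chilling values. Nothing is read from this difference.

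PRUPE_1G276700 and PRUPE_3G148300 had the largest ratios of LP maximum to LP 0 h. PRUPE_1G276700 reached a high level in the cold in both genotypes. In LP it had 69.4, 70.1 and 69.9 CPM at 0 h and 918, 903 and 867 CPM at 100 h. Its maximum of 935, 985 and 1004 CPM came at 400 h, and it was still at 651 ± 40 CPM at 1000 h. PRUPE_3G148300 had its LP maximum at 800 h, with 21.7, 21.9 and 18.6 CPM against 1.78, 1.19 and 1.10 CPM at 0 h. Around the thresholds the values were close. The 2 members nearest the 4-fold limit in JB had ratios of 4.08 and 4.17, and the 2 nearest genes outside had 3.99 and 3.98. At the 2-fold limit in LP, ratios were 2.02 and 2.02 inside and 2.00 (to 3 digits, and under the limit) and 1.97 outside.

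**Figure D2:**
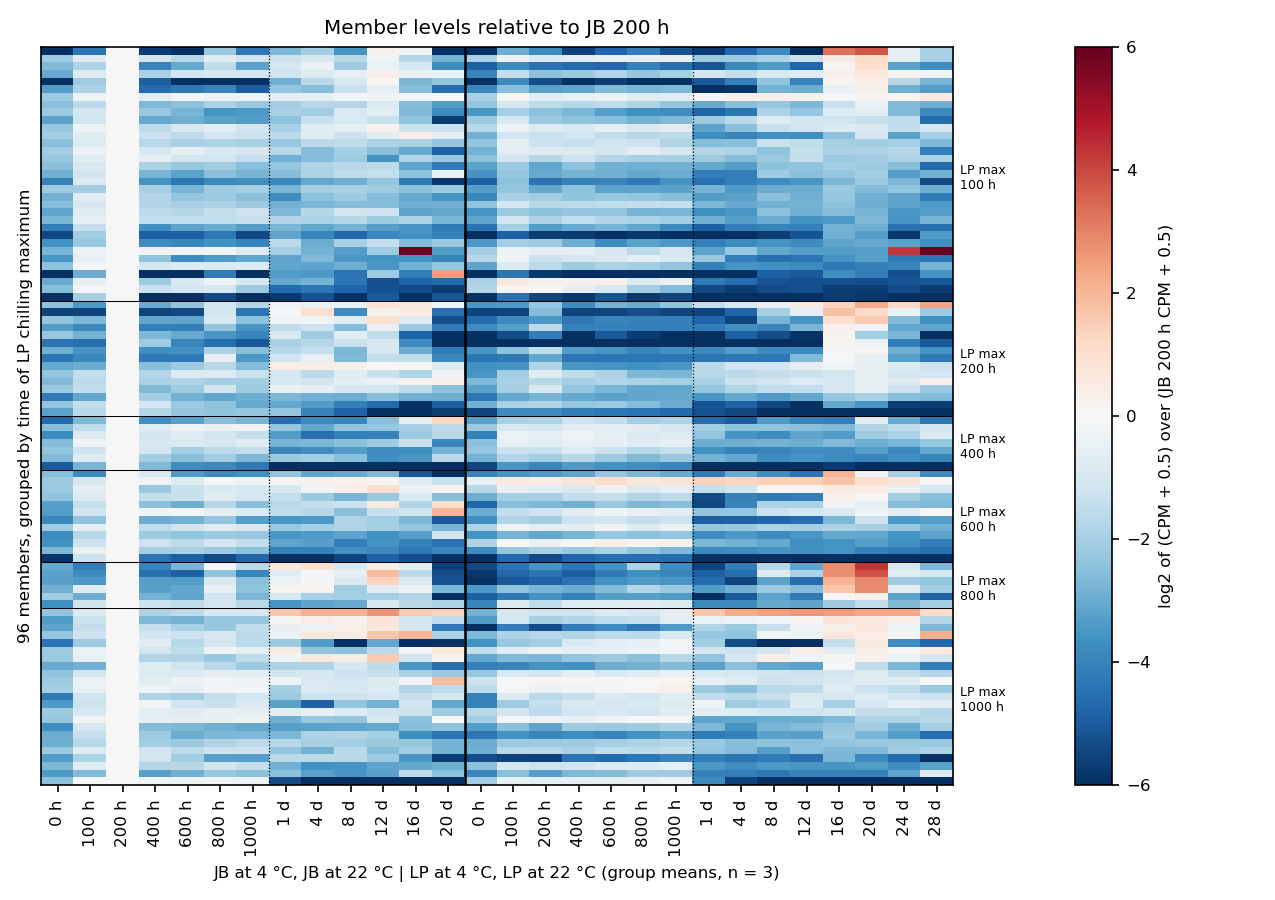
Group means of the 96 members (rows) in the 28 groups (columns, n = 3 each) as the log2 of CPM + 0.5 over JB 200 h CPM + 0.5. Rows are grouped by the time of the LP chilling maximum, from 33 members at 100 h to 23 at 1000 h, and the red cells at LP 16 d and 20 d are members above their JB 200 h level.

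The digit before the G in a peach gene identifier names the chromosome. By that naming, 17 members (17.7%) lay on chromosome 5, which holds 9.17% of the table's genes, and 3 members (3.12%) on chromosome 2, which holds 12.3%. Chromosome 1 held 17 members (17.7%, against 21.9% of genes), chromosome 3 held 13 (13.5%, against 11.8%) and chromosome 4 held 12 (12.5%, against 10.8%). Chromosomes 6, 7 and 8 held 11 each (11.5%, against 13.6%, 10.1% and 10.1%), and 1 member was unplaced. In 8 places members had identifiers within 1000 of each other. The run with the most members was PRUPE_3G143900, PRUPE_3G144000 and PRUPE_3G144100, which follow each other in the table and had 391 ± 11, 391 ± 20 and 526 ± 18 CPM at JB 200 h. Neighbouring genes of this kind may be similar copies, and how reads shared by copies were counted is not given in the sources used here, so their single values are uncertain. PRUPE_5G089900 and PRUPE_5G090600 stand 7 rows apart. They had 25.4 ± 0.22 and 25.1 ± 1.3 CPM at JB 200 h, and 39.6 ± 1.8 and 28.3 ± 0.8 CPM at their common LP maximum of 100 h.

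At 22 °C the members were tested in a fit of all 21168 genes that passed a filter on low counts, and all 96 members passed it. A call is an adjusted p under 0.05 in edgeR's quasi-likelihood test, with the Benjamini-Hochberg adjustment made across the 21168 genes. Counts of members called are set beside the share of all tested genes called, since warming changed many genes.

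Of the libraries at 22 °C, JB 12 d replicate 3 and LP 28 d replicate 3 stood apart in the members. Of the 59 members with a mean of at least 5 CPM at JB 12 d, 15 (25.4%) were in replicate 3 at under 50% of the lower of the other 2 replicates, against 1.77% of the 14496 genes with that mean. Of the 47 such members at LP 28 d, 19 (40.4%) were under 50% in replicate 3, against 2.15% of 15371 genes. In the other 82 libraries 0 members met this condition. PRUPE_1G497700 had 138, 138 and 4.57 CPM at JB 12 d and 28.2, 31.3 and 0 CPM at LP 28 d. The member median was 31.7%, 30.4% and 23.5% of the JB 200 h level in the 3 libraries of JB 12 d, and 13.3%, 13.5% and 4.23% in those of LP 28 d. What set these libraries apart was not tested.

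LP buds raised most members between 1 d and 20 d at 22 °C. Of the 96 members, 67 rose (69.8%), against 27.0% of all tested genes. Only 10 fell (10.4%), against 26.8%, and 19 did not pass. At a 2-fold minimum 55 rose, against 12.0% of all genes, and 5 fell, against 6.15%. The median log2 change of the members was 1.66, and that of all tested genes was 0.00. The largest rises among the named members were from near silence. PRUPE_3G148300 had 1.27, 1.41 and 0.836 CPM at LP 1 d and 1496, 1641 and 1570 CPM at 20 d (log2 change of 10.34 ± 0.24 SE, adjusted p = 2.18e-47 in edgeR). PRUPE_4G261900 had no count at LP 1 d and 51.8 ± 1.1 CPM at 20 d, which is at least 739-fold higher when the empty group is set to a total of 3 counts (adjusted p = 8.96e-23 in edgeR). PRUPE_4G259800 fell, from 8.24, 10.4 and 9.72 CPM to 0.800, 0.365 and 0.926 CPM, a log2 change of -3.75 ± 0.26 (adjusted p = 1.47e-20 in edgeR).

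The LP rise came late and was short. Member medians in LP were 6.87% of the JB 200 h level at 1 d, 6.28% at 4 d, 11.2% at 8 d and 10.1% at 12 d. They were then 26.2% at 16 d and 35.9% at 20 d, before 15.2% at 24 d and 13.1% at 28 d. The highest warm level of LP fell at 16 d in 28 members (29.2%) and at 20 d in 31 (32.3%). Of the 17920 genes with a group mean of at least 5 CPM, 15.1% and 11.5% had it on these days. PRUPE_7G051200, low in LP throughout the cold, had 17.0, 19.3 and 17.2 CPM at 12 d and 1467, 1482 and 1531 CPM at 16 d. Its LP level at 16 d was thus above its JB level at 200 h, without overlap of libraries. PRUPE_3G144000 reached 5504, 5707 and 5579 CPM in LP at 20 d, against 393, 410 and 370 CPM at JB 200 h and 18.1 ± 1.2 CPM at LP 200 h. Over the members, 34 had an LP warm group mean above their JB 200 h level, 28 had a JB one, and 49 were highest at JB 200 h of all 28 groups. The choice made JB 200 h the highest JB chilling group, which favours the last count. No share of all genes is given beside these counts, so nothing is read from them.

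**Figure D3:**
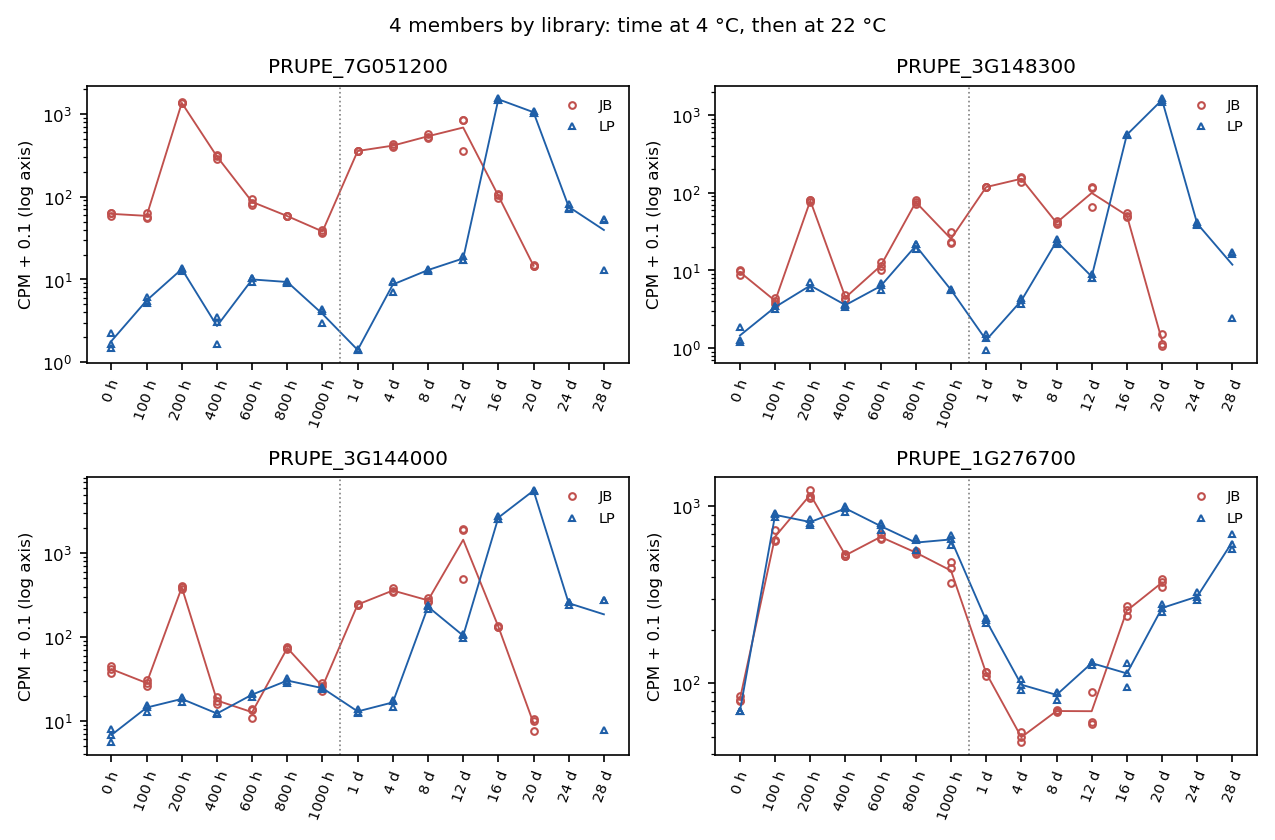
CPM + 0.1 on a log axis in every library for 4 members, against time at 4 °C and then at 22 °C (right of the dotted line). Circles are JB and triangles LP libraries, and lines join the group means. PRUPE_7G051200, PRUPE_3G148300 and PRUPE_3G144000 have their JB chilling maximum at 200 h and their LP maximum at 16 d or 20 d, and PRUPE_3G148300 and PRUPE_3G144000 stand higher in JB on some warm days than at 200 h, while PRUPE_1G276700 is high in the cold in both genotypes, and in the first 3 panels the lowest library at JB 12 d and at LP 28 d is replicate 3, which in PRUPE_3G148300 at JB 12 d is at 65.2 CPM against 115 and 118 CPM.

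From 20 d to 28 d in LP, when these buds began to bloom, 59 members fell (61.5%, against 31.2% of all tested genes), 11 rose (11.5%, against 29.9%) and 26 did not pass. This comparison and those with JB 12 d were added after the data were seen. PRUPE_3G148300 fell from the values above to 17.0, 16.0 and 2.36 CPM, a log2 change of -7.15 ± 0.19 (adjusted p = 9.48e-44 in edgeR). The exception on the largest scale was PRUPE_5G119200, which rose from 0.267, 0.274 and 0.185 CPM at 20 d to 1891.5, 1871 and 2587 CPM at 28 d (log2 change 12.91 ± 0.26, adjusted p = 2.92e-51 in edgeR). In JB that gene was at 429 ± 21 CPM at 16 d and at 0.209 ± 0.13 CPM at 20 d. Over the whole LP course from 1 d to 28 d, 44 members rose (45.8%, against 30.6% of all genes), 25 fell (26.04%, against 31.8%) and 27 did not pass, with a median log2 change of 0.50. At a 2-fold minimum 35 rose, against 16.3% of all genes, and 20 fell, against 8.7%. With both libraries that stood apart left out, 48 rose and 25 fell.

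In JB buds more members fell than rose between the same days. From 1 d to 20 d, 52 members fell (54.2%, against 35.7% of all tested genes), 28 rose (29.2%, against 34.2%) and 16 did not pass, with a median log2 change of -1.04. At a 2-fold minimum 48 fell, against 16.1% of all genes, and 17 rose, against 16.4%. PRUPE_7G051800 fell most, from 140, 153 and 153 CPM to 0.444, 0.521 and 0.511 CPM, a log2 change of -8.09 ± 0.23 (adjusted p = 3.90e-43 in edgeR). PRUPE_3G148300 fell from 119, 118 and 118 CPM to 0.978, 1.04 and 1.43 CPM, a log2 change of -6.57 ± 0.26 (adjusted p = 1.30e-34 in edgeR). Among those that rose, PRUPE_1G121800 went from 7.42, 6.96 and 7.04 CPM to 450, 417 and 447 CPM, a log2 change of 6.06 ± 0.19 (adjusted p = 1.04e-39 in edgeR). In LP at 20 d the same gene was at 4.53, 4.29 and 2.78 CPM.

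Between these days JB members stood highest at 12 d. The highest warm level of JB fell at 12 d in 29 members (30.2%), against 16.1% of genes with a group mean of at least 5 CPM. From 1 d to 12 d, 45 members rose (46.9%, against 27.0% of all tested genes), 21 fell (21.9%, against 28.5%) and 30 did not pass. From 12 d to 20 d, 58 fell (60.4%, against 36.1%), 20 rose (20.8%, against 37.2%) and 18 did not pass. At a 2-fold minimum 35 rose from 1 d to 12 d, against 8.44% of all genes, and 7 fell, against 11.2%. PRUPE_8G174900 rose from 12.0, 12.2 and 11.3 CPM at 1 d to 132, 130 and 29.97 CPM at 12 d, with a log2 change of 3.11 ± 0.28 (adjusted p = 1.93e-15 in edgeR), and of 3.59 without the libraries that stood apart. PRUPE_3G144000 rose from 249, 241 and 243 CPM to 1932, 1920 and 498 CPM, a log2 change of 2.64 ± 0.34 (adjusted p = 3.09e-10 in edgeR), and of 3.11 without those libraries. In both genes the third library at 12 d lay far below the other 2 and still above all libraries of 1 d. Without the JB 12 d and LP 28 d libraries that stood apart, 49 members rose and 20 fell from JB 1 d to 12 d, 19 rose and 59 fell from JB 12 d to 20 d, and 11 rose and 57 fell from LP 20 d to 28 d.

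**Figure D4:**
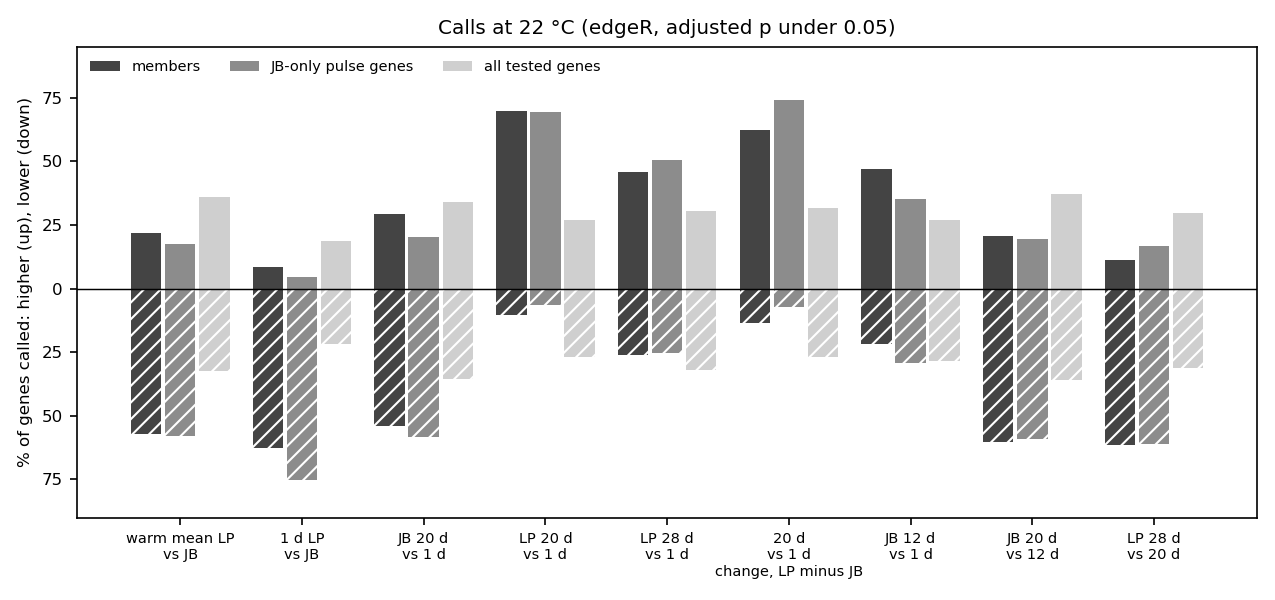
Percentage of genes called higher (bars up) or lower (hatched bars down) in 9 comparisons at 22 °C, by edgeR at an adjusted p under 0.05, for the 96 members, the 154 genes with the JB pulse but under 2 times LP 0 h, and all 21168 tested genes. The members rise in 69.8% of cases from LP 1 d to 20 d and fall in 54.2% from JB 1 d to 20 d, against 27.0% and 35.7% of all genes.

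The change from 1 d to 20 d was compared between the genotypes directly. It was more positive in LP for 60 members (62.5%, against 31.6% of all tested genes), more negative for 13 (13.5%, against 26.7%) and not called for 23. In 37 members (38.5%, against 8.36% of all tested genes) the level fell in JB and rose in LP, and in 22 (22.9%, against 11.4%) it rose in both. In 7 members (7.29%, against 14.0%) it fell in both, and in 2 (2.08%, against 6.96%) it rose in JB and fell in LP. PRUPE_5G241000 was a member with the larger rise in JB. It had 24.98, 26.3 and 25.5 CPM at 1 d and 117, 123 and 117 CPM at 20 d in JB, against 20.3, 23.0 and 22.9 CPM and then 18.6, 17.8 and 19.5 CPM in LP (difference of log2 changes -2.59 ± 0.15, adjusted p = 5.99e-25 in edgeR). Bloom had started in JB by day 20 and not in LP, so a difference on the same day cannot be told apart from a difference in stage.

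**Figure D5:**
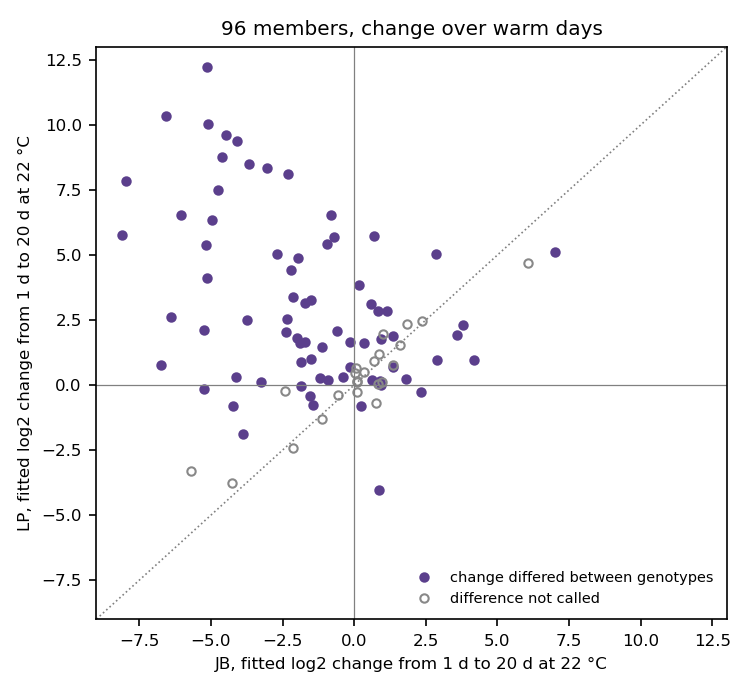
Fitted log2 change from 1 d to 20 d at 22 °C in JB (x axis) and LP (y axis) for the 96 members. Filled points are the 73 members whose change differed between the genotypes (edgeR, adjusted p under 0.05), open points the other 23, and the dotted line marks equal change; 37 members, and 8.36% of all tested genes, were called lower in JB and higher in LP.

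On the first day at 22 °C the members were mostly lower in LP. At 1 d, 60 members were lower in LP than in JB (62.5%, against 21.6% of all tested genes), 8 were higher (8.33%, against 18.7%) and 28 did not pass, with a median log2 difference of -1.24. At a 2-fold minimum 50 were lower, against 10.3% of all genes, and 5 higher, against 3.12%. The choice asked for 5 CPM in JB and for no level in LP, which favours genes that are higher in JB, so levels between genotypes are less independent of it than changes within a genotype. PRUPE_7G051200 had 356, 358 and 350 CPM in JB and 1.35, 1.29 and 1.29 CPM in LP at 1 d, a log2 difference of -8.06 ± 0.29 (adjusted p = 7.21e-36 in edgeR). PRUPE_5G195200 was higher in LP, with 67.5, 64.6 and 67.6 CPM against 8.73, 7.22 and 8.62 CPM in JB (3.04 ± 0.13, adjusted p = 5.07e-32 in edgeR). From 1000 h of cold to 1 d of warmth, given as a description, the member median went from 17.3% to 6.87% of the JB 200 h level in LP and from 19.8% to 19.8% in JB.

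Averaged over the 6 shared warm days, 55 members were lower in LP (57.3%, against 32.5% of all genes), 21 were higher (21.9%, against 36.2%) and 20 did not pass, with a median log2 difference of -0.54. At a 2-fold minimum 32 were lower, against 8.15% of all genes, and 8 higher, against 3.84%. With both libraries that stood apart left out, 20 members were higher and 59 lower. This mean pools days that differed in direction. As a percentage of the JB 200 h level, the member median was lower in LP from 1 d (6.87% against 19.8% in JB) to 12 d (10.1% against 32.2%). It was higher in LP at 16 d (26.2% against 20.4%) and 20 d (35.9% against 10.9%). PRUPE_1G072100 was lower in LP on all 6 days, with a mean log2 difference of -2.64 ± 0.07 (adjusted p = 1.05e-44 in edgeR). It had 8.64, 6.61 and 8.71 CPM in JB and 1.35, 2.06 and 0.912 CPM in LP at 1 d. PRUPE_4G261200 was higher in LP on all 6 days, by 1.67 ± 0.07 (adjusted p = 1.77e-34 in edgeR), with 15.1, 17.7 and 19.0 CPM in LP and 7.51, 6.79 and 7.04 CPM in JB at 1 d.

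The warm changes were also counted by the chilling course of the members. Of all tested genes, 27.0% rose and 26.8% fell from LP 1 d to 20 d, and 21.6% were lower in LP at 1 d. Of the 22 that were high again at 800 h in JB, 20 rose and 2 fell from LP 1 d to 20 d, with a median log2 change of 6.44, and 22 were lower in LP at 1 d, a level that the choice by high JB values favours. Of the other 74, 47 rose and 8 fell, with a median of 0.94. Of the 52 with a narrow JB peak, 43 rose and 2 fell in LP over those days, with a median of 2.82, against 24 and 8 of the other 44, with a median of 0.30. These subsets were drawn after the values were seen, and the difference between them was not tested.

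The 154 genes with the same JB pulse but under 2 times LP 0 h in every LP chilling time were counted in the same comparisons at 22 °C. From LP 1 d to 20 d, 69.5% of them rose and 6.49% fell, and from JB 1 d to 20 d, 20.1% rose and 58.4% fell. At 1 d, 75.3% were lower in LP. The 2 lists share the JB libraries that chose them and are set side by side with no test.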

How the data were processed

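Messenger RNA of floral buds was sequenced in 84 libraries, grouped by genotype, treatment and time in the sample titles. Per the labels' protocols, RNA came from a Norgen kit and libraries from the TruSeq Stranded mRNA kit. The submitters' processing notes name edgeR, STAR 2.6.0, Trimmomatic and FastQC 0.11.9. The authors deposited a table of unnormalized whole-number counts. How reads were assigned to genes, with which build, annotation and strand option, is not given in the sources used here, and 0 columns were left unused.

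CPM in the text use the column totals. For tests, edgeR 4.0.16 (R 4.3.3) was run on the deposited counts with TMM scaling (factors 0.870 to 1.16). The filterByExpr filter by group kept 21168 genes, and the 5711 others held 0.028% of reads. The model was glmQLFit and glmQLFTest with a mean per group over all 84 libraries and 56 residual degrees of freedom. SE were taken from the F statistic. The fit was tested on simulated data. DESeq2 1.42.0 was an alternative, as were DESeq2 size factors, no filter, a 2-fold minimum, only the compared groups, left-out libraries and a block for the replicate number. Members and lists were chosen with earlier results of these data known. Members are named by rule: the 2 highest and 2 lowest called per comparison with at least 5 CPM and no overlap of replicates (over the mean of days, the same sign on all; for the difference of changes, no overlap in at least 1 genotype), and for the chilling peak the 2 highest by level and by each ratio. PRUPE_3G143900, PRUPE_3G144100, PRUPE_5G089900 and PRUPE_5G090600 fall outside it and were chosen for their neighbouring identifiers after values were seen. Not every gene that the rule takes is printed.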

Additional observations from a re-analysis of the deposited data

Results flagged for a closer look

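The change from 1 d to 20 d at 22 °C differed between LP and JB, by a test of the difference itself, in 73 of the 96 members (edgeR, adjusted p under 0.05), of which 60 were more positive in LP (31.6% of all tested genes were) and 13 more negative (26.7%). Among the named members, PRUPE_4G261900 (adjusted p = 2.09e-25 in edgeR) and PRUPE_3G148300 (adjusted p = 3.65e-51) were more positive in LP. PRUPE_5G241000 (adjusted p = 5.99e-25) and PRUPE_5G004100 (adjusted p = 0.00112) were more negative in LP, the latter with 6.40, 6.69 and 6.44 CPM at JB 20 d against 1.51, 1.46 and 1.02 CPM at LP 20 d. Stage and genotype cannot be told apart on the same day.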

How the results depend on the processing

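The 9 comparisons, the number of members, the median ratio and the count with an LP maximum at 200 h were recomputed in 108 alternatives, of which 106 moved the value by less than 1.5 times and 0 turned the balance of directions. The 2 others were the 2-fold minimum, which took the members called from 76 to 40 in the mean over shared warm days and from 66 to 42 from JB 1 d to 12 d, as fewer genes can pass it. All 324 alternative values of named genes kept their direction and call. These genes were named as the largest called changes, mostly without overlap of replicates, so that outcome was likely beforehand. Without 1 replicate number at a time, members called ran from 69 to 75 for the mean over warm days, 60 to 67 at 1 d, 73 to 80 from JB 1 d to 20 d, 68 to 70 from LP 1 d to 20 d, 60 to 74 from LP 1 d to 28 d, 65 to 72 for the difference of changes, 58 to 70 from JB 1 d to 12 d, 67 to 75 from JB 12 d to 20 d and 68 to 69 from LP 20 d to 28 d. The rule itself gave 94 to 102 members with libraries left out, 79 with CPM + 1 and 95 with TMM-scaled CPM. The lists were not the same genes throughout. Of the 96 members, 85, 89 and 90 were kept without replicate 1, 2 and 3, 79 with CPM + 1 and 91 with TMM-scaled CPM. With the replicate number as a block, 77 members were called from LP 1 d to 20 d and 73 in the difference of changes, as without it, and 71 against 70 from LP 20 d to 28 d. Same-numbered libraries of the compared groups showed little common deviation over the tested genes (correlations from -0.0185 to 0.0808 over 21 pairs). JB 12 d was not set against LP 28 d in this way, and whether the numbers mark a shared tree or batch was not tested. Between 0 and 6 members per comparison had a group with no count. With those at a floor of 3 counts the median log2 difference over warm days was -0.52, that from JB 12 d to 20 d was -0.98 against -0.99, and the other medians kept their value. In LP chilling 32 members stayed under 5 CPM, where counting error is largest.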
